A study of Homo sapiens with 6 samples.

Results

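NFIX, a gene on human chromosome 19 (19: 12995475-13098796, GRCh38.p14), encodes nuclear factor I X. It was examined in 3 deposited lists of differentially methylated regions, all on hg38. Its members are the listed regions that overlap the window 19: 12994000-13099000. They number 11 of 4344 listed regions, 4 in each of the first 2 lists and 3 in the third. The gene was chosen by the called differences themselves, as regions in it were listed in several pairs, so the levels and differences given for it here are a description of called regions and carry no test.

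The assay was reduced representation bisulfite sequencing (RRBS), which reads methylation at CpG-rich fragments, and the cells were HepG2, a human hepatocellular carcinoma cell line kept in DMEM with 10% fetal bovine serum. The 3 control libraries (labelled WT) came from HepG2 cells that received a control lentivirus, and the 3 DNMT3A overexpression libraries from cells that received a lentivirus carrying DNMT3A, a de novo DNA methyltransferase. Both groups were thus infected cells of 1 line. The labels state neither the time after infection nor the DNMT3A isoform or its level, and not whether the libraries of a group were separate cultures. The SDs below therefore describe the sequenced libraries alone, and their spread may be purely technical. They also mix sets of CpG sites, because the boundaries of a region differ between pairs. Region 1, described below, held 20 sites in 166 bp in pair 1 and 16 in 105 bp in the other pairs. Each list compares 1 overexpressing with 1 control library, matched by their number, and the 3 comparisons are called pair 1, 2 and 3 here. Mapped reads ranged from 25764323 to 29924507 per library. The lists give no reads per region, so the depth behind a level is unknown.

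The nuclear factor I family has 4 members in vertebrates, NFIA, NFIB, NFIC and NFIX. They are transcription factors that bind a palindromic DNA sequence as dimers, through a shared amino-terminal domain, and can activate or repress their targets. NFIX is known for roles in the development of brain and muscle and in blood stem cells, and mutations in it cause an overgrowth syndrome and a skeletal syndrome in people. DNMT3A adds methyl groups to cytosines, mostly in CpG dinucleotides. Methylation at a CpG-rich promoter usually goes with silencing, whereas gene bodies of active genes are often methylated.

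The starts of NFIX are shown first, to set the listed regions against where transcription of the gene begins. RefSeq (GRCh38.p14) gives 5 starts, all on the plus strand, and no region was listed within 1 kb of any of them. A listed region within 1 kb was also rare over all 35116 annotated starts, at 2.21%, so none at 5 starts is near that background. The 250 bases before the first start and before the start at position 13023972 differ most in CpG content, with 37 and 4 CpG dinucleotides. CpG dinucleotides are in capitals, written 5′ to 3′ on the plus strand.
First start, chr19:12995225-12995474: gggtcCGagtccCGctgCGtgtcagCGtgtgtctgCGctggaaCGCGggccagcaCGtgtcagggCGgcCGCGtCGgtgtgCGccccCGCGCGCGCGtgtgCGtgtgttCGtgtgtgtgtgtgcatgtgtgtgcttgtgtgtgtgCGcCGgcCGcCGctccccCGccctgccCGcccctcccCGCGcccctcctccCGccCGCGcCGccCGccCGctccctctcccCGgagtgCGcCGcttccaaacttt
Inner start, chr19:13023722-13023971: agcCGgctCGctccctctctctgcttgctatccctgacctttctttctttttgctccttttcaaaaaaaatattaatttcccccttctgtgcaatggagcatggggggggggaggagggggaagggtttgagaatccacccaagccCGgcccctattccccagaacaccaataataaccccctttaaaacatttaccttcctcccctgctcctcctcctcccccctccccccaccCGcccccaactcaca

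As many CpG dinucleotides as before the first start were found in 4.0% of the 35116 RefSeq windows of the same length, against 70.7% for the inner start. Both windows hold 2 copies of CCGG, the sequence that MspI cuts in RRBS and that reads the same on both strands. At least 1 copy was found in 58.5% of all windows. The 3 remaining starts, at 13024579, 13024581 and 13024779, have 15, 15 and 22 CpG dinucleotides in their windows and 1, 1 and 2 copies of CCGG. The half-site of the NFI palindrome, TTGGC or GCCAA on its other strand, occurs once in the overlapping windows of the starts at 13024579 and 13024581 and not in the other 3. It occurs in 40.8% of all windows. Both half-sites with 5 bases between them, the full palindrome, have no match in the 5 windows and a match in 0.0285% of all windows. A start without a listed region is one where no difference was called, and whether it was covered by reads cannot be read from the lists.

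All 11 listed regions of NFIX were higher in the DNMT3A-overexpressing library than in its control. Among all listed regions the share that was higher was 82.1% in pair 1, 81.7% in pair 2 and 81.1% in pair 3. Merging regions that overlapped by at least 1 bp left 4 places in the gene, numbered here from the first start onward. Regions 1, 2 and 3 were listed in all 3 pairs, and region 4 in pairs 1 and 2. Of the 3313 distinct regions of the series, 264 were listed and higher in all 3 pairs (7.97%), and the repeated listing of NFIX is what led to its choice.

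**Figure D1:**
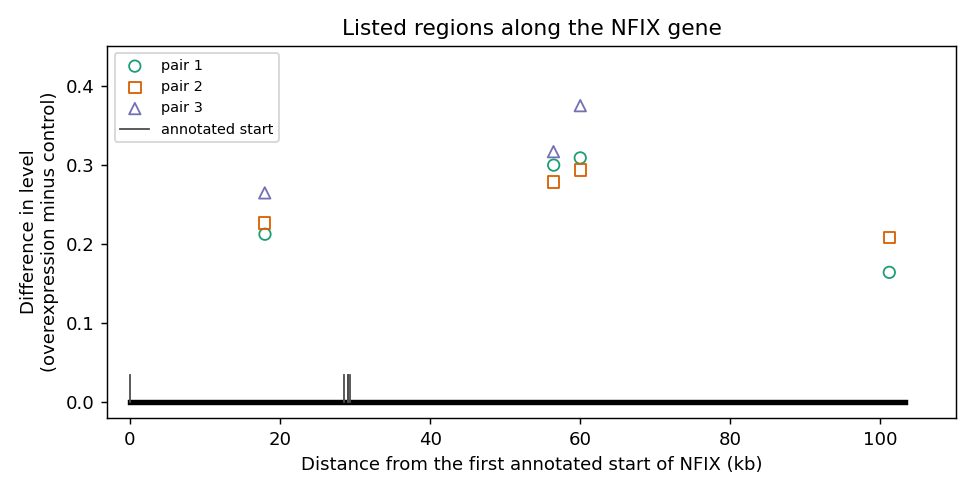
Listed regions along NFIX. The x axis gives the distance from the first annotated start in kb and the y axis the difference in methylation level (fraction, overexpressing minus control library). Each symbol is 1 listed region of 1 pair, the thick line is the gene and the short ticks are the 5 annotated starts, of which 3 lie too close together to be told apart. All 11 symbols are above 0, in 4 places.

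Region 1 (19: 13013389-13013554) lies 17914 bp after the first start and before the 4 inner starts. It is also 334 bp from NFIX-AS1, a long noncoding RNA gene on the opposite strand (19: 13013888-13015153), at the end of that gene that is farther from its start. The methylation level, given by the authors as the region's mean fraction of methylation, was 0.111, 0.0849 and 0.123 in control libraries 1, 2 and 3. In the overexpressing libraries it was 0.323, 0.311 and 0.387. All overexpressing levels lay above all control levels, with 0.188 between the nearest of the 2 groups. The means were 0.106 ± 0.0194 (SD, n = 3) and 0.341 ± 0.0408 (SD, n = 3), and the difference within pairs was 0.234 ± 0.0270 (SD, n = 3).

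Region 2 (19: 13051879-13051997) lies inside the gene, 56404 bp after the first start, beyond all annotated starts. It was the least methylated of the NFIX regions in the controls, at 0.0456, 0.0530 and 0.0730 in libraries 1, 2 and 3. The overexpressing libraries stood at 0.345, 0.331 and 0.390. Again the groups did not overlap, here with 0.258 between them. The means were 0.0572 ± 0.0142 and 0.355 ± 0.0304 (SD, n = 3), with a difference of 0.298 ± 0.0192. As a ratio, the level was 6.39 ± 1.12 times that of the control (SD, n = 3 pairs). This ranked 18 from the highest among the 264 regions listed as higher in all pairs (called shared gains below). Among them its difference ranked 108 and its control level 229, so the ratio was taken over a low control level.

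Region 3 (19: 13055400-13055571) begins 3402 bp after the end of region 2. It was the most methylated of the regions in every library that listed it. Its control levels were 0.250, 0.219 and 0.279, and its overexpressing levels 0.558, 0.513 and 0.653. The lowest overexpressing level was 0.234 above the highest control level. Means were 0.249 ± 0.0299 and 0.575 ± 0.0718 (SD, n = 3), and the difference of 0.326 ± 0.0431 had the highest mean of the NFIX regions. In relative terms this change, 2.31 ± 0.0612 times the control level, was smaller than that of region 2.

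Region 4 (19: 13096618-13096796) lies near the far end of the gene, ending 2000 bp before it. The next gene, LYL1, which encodes a basic helix-loop-helix transcription factor of blood cells, begins 2237 bp further on and is read in the opposite direction, so that its end faces region 4. In pair 1, over 71 bp, the control had a level of 0.114 and the overexpressing library one of 0.279. In pair 2 it was 0.169 and 0.378, over 179 bp. The 2 differences, 0.164 and 0.208, were the lowest of the 11. Pair 3 listed nothing there, which says only that no difference was called. Since the boundaries differ between the pairs, the levels of the 2 controls are not of the same set of CpG sites.

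**Figure D2:**
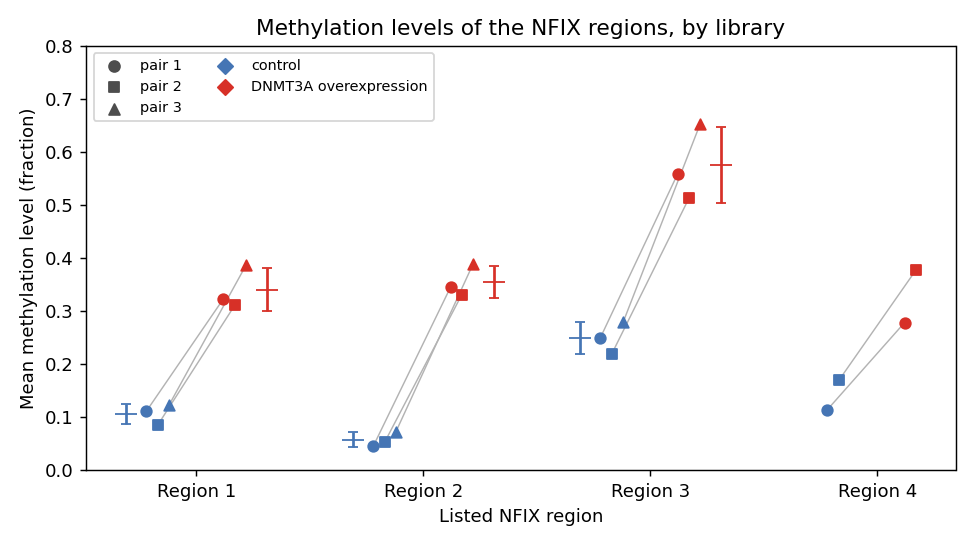
Methylation level (fraction) of the 4 NFIX regions in each library. Blue symbols are controls and red symbols DNMT3A-overexpressing libraries, a symbol shape stands for a pair, grey lines join the libraries of a pair, and bars beside regions listed in all pairs give the mean ± SD of 3 libraries. In each region the red symbols lie above the blue ones, and region 3 starts and ends highest.

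The order of the regions was not the same in the 2 groups. Region 2 was below region 1 in all 3 controls, by 0.0654, 0.0319 and 0.0497, more than the SD of either region among the controls. In the overexpressing libraries it was above region 1 by 0.0218, 0.0201 and 0.00234, less than the SD of either region among those libraries. Taken within libraries, region 2 was below region 1 by 0.0490 ± 0.0168 in the controls (SD, n = 3). It was above region 1 by 0.0147 ± 0.0108 in the overexpressing libraries (SD, n = 3). The gain at region 2 exceeded that at region 1 in each pair, by 0.0637 ± 0.0203 on average (SD, n = 3 pairs). Region 3 exceeded region 1 in gain by 0.0912 ± 0.0219, also in each pair. Region 3 exceeded region 2 in gain in each pair as well, by 0.00913, 0.0153 and 0.0581, a mean of 0.0275 ± 0.0266 that is about as large as its SD.

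The unmethylated fraction of the control gives a further scale, since a region can gain no more than it lacks. Divided by the unmethylated fraction, the difference was 0.263 ± 0.0340 at region 1 (SD, n = 3 pairs), 0.316 ± 0.0239 at region 2 and 0.436 ± 0.0747 at region 3. The median over the 264 shared gains was 0.355, with an interquartile range of 0.265 to 0.443. Region 1 thus lay just under that range, and regions 2 and 3 within it.

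Overexpressing library 3 had the highest level of its group at regions 1, 2 and 3, and so did control library 3. Over all 264 shared gains overexpressing library 3 was the highest of its group in 33.7% and control library 3 in 31.1%, so this order is not a general one. Overexpressing library 3 had the fewest mapped reads of the 6 libraries, 25764323. Control library 3 had 27197410, between control library 2 with 26912596 and control library 1 with 29269281. The part of depth in these levels was not tested. Without pair 3 the differences were 0.219, 0.289 and 0.301 at regions 1, 2 and 3.

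Over all NFIX regions of a pair, weighted by their CpG sites, the mean difference was 0.251 in pair 1, 0.244 in pair 2 and 0.321 in pair 3. The mean of the pairs was 0.272 ± 0.0426 (SD, n = 3). The same mean over all listed regions that were higher was 0.252 ± 0.00132. The gap between these means was smaller than the SD of NFIX between pairs. The value of pair 3 holds no region 4, and with region 4 left out the 3 pairs gave 0.271, 0.268 and 0.321. Their mean was then 0.286 ± 0.0298 (SD, n = 3), and its gap to 0.252 was larger than this SD.

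Set beside the other gains, the NFIX regions lay within the common range of size and of spread between pairs. By mean difference, regions 3, 2 and 1 ranked 67, 108 and 186 of the 264 shared gains, whose median was 0.280. Their control levels ranked 68, 229 and 173 from the highest, against a median of 0.148. The SD of the difference between pairs was 0.0270, 0.0192 and 0.0431 at regions 1, 2 and 3, around the median of 0.0322. Groups that did not overlap were also no mark of NFIX, as 98.5% of the shared gains had every overexpressing level above every control level.

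**Figure D3:**
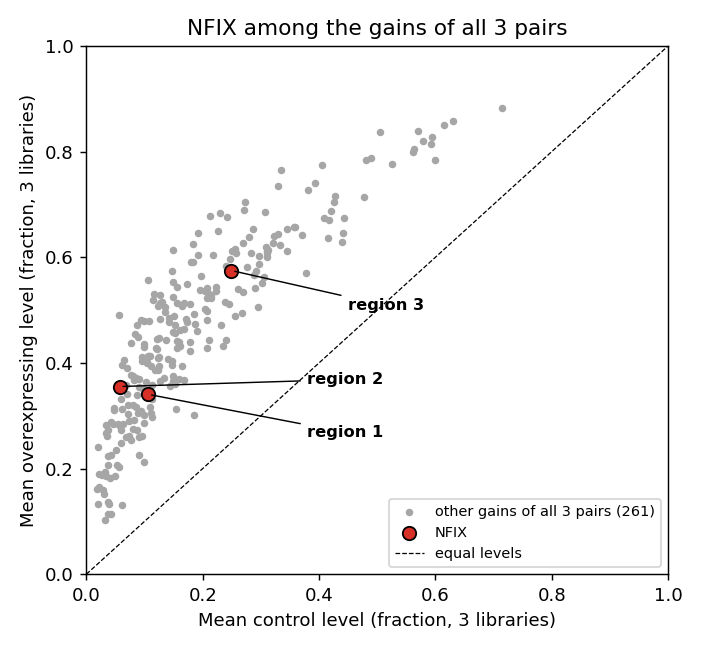
Mean control level (x axis, fraction) against mean overexpressing level (y axis, fraction) of the 264 regions that were listed and higher in all 3 pairs. Each grey dot is a region outside NFIX, red dots are NFIX regions 1 to 3, and the dashed line marks equal levels. The NFIX regions lie inside the cloud, with regions 1 and 2 below the median control level of 0.148 and region 3, at 0.249, near the upper quartile of 0.251.

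NFIX was one of few genes with several such places, but it had been chosen for the repeated listing of its regions. A gain of all 3 pairs lay within 1 kb of 184 of 20056 protein-coding genes (0.917%), and at least 3 of them lay within 1 kb of 7 genes (0.0349%). GNG7, a G protein gamma subunit gene, had 6 and CACNA1H, a calcium channel gene, had 5. NFIX shared the count of 3 with BCL11B, BCOR, EPHA2 and SLCO4A1. These genes range in length from 31.7 kb in EPHA2 to 191 kb in GNG7, and NFIX covers 103 kb. How many CpG sites of each gene were covered is unknown, so the counts are not rates.

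The 11 regions held 8 to 31 CpG sites each, against a median of 11 or 12 in the lists of the 3 pairs. The 8 sites of region 2 in pair 2 were the only number below its list's median. Per 100 bp they held 11.0 to 25.4 sites, against list medians of 10.9, 11.1 and 11.1, with region 3 close to the median in pairs 1 and 3. The 25.4 is region 2 in pair 3, and pair 2 listed nearly the same bases there with 12.9 sites per 100 bp. The lengths of the 11 regions ran from 62 to 179 bp. In NFIX, starts were the more constant boundary. All 10 overlaps between NFIX regions of different pairs had starts within 1 bp of each other, and 2 had ends within 1 bp. These 10 overlaps come from only 4 places, most of them counted more than once, so they are not separate observations. Over the 1308 overlaps of the whole series, 61.9% had such starts and 61.8% such ends.

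The regions whose levels were nearest to those of NFIX were found by the mean absolute difference over the 6 libraries, among regions listed in all pairs with a gene within 1 kb. For region 1 they were in MCF2L (13: 112983501-112983784, 0.0204), in GNG7 (19: 2513015-2513305, 0.0210) and in the noncoding gene LINC02708 (11: 1689619-1689718, 0.0219). For region 2 they were in the noncoding gene LOC105371024 (15: 100727467-100727725, 0.0196), in BCOR (X: 40169919-40170022, 0.0226) and in EPHA2 (1: 16146527-16146662, 0.0240). The nearest to region 3 were in or near AACS (12: 125093525-125093625, 0.0323), MORF4L1 (15: 78876982-78877108, 0.0402) and P2RX4 (12: 121227416-121227509, 0.0408). The BCOR region is 1 of 3 shared gains within 1 kb of that gene, which encodes a transcriptional corepressor. This region alone stood at 0.0596 ± 0.00201 in the controls and 0.360 ± 0.0718 in the overexpressing libraries (SD, n = 3).

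The rest of the NFI family differed from one gene to the next. NFIC (19: 3359630-3469217), on the same chromosome and of similar length, had 10 listed regions, all higher, in 6 places. NFIB (9: 14081843-14532077) had 6 regions, 3 higher and 3 lower, in 3 places. No region was listed in NFIA. Places listed in all 3 pairs were 3 of 4 in NFIX, 1 of 6 in NFIC and 0 of 3 in NFIB, against 8.21% of all distinct regions, and NFIX had been chosen for that count.

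The place in NFIC that all pairs listed (19: 3411822-3411997) had the same boundaries in each. Its levels were 0.0746, 0.0921 and 0.0922 in controls 1, 2 and 3 and 0.356, 0.340 and 0.319 in the overexpressing libraries. The groups did not overlap, and the difference was 0.252 ± 0.0274 (SD, n = 3), between those of NFIX regions 1 and 2. In NFIB the pairs went in opposite directions at 2 of the 3 places, and the third was listed in 1 pair only. Of the 3313 distinct regions of the series, 58 had opposite directions. Only the 451 listed in 2 pairs and the 272 listed in 3 could show this, as 2590 were listed in 1 pair. The region at 9: 14313625-14313800 stood at 0.0469 in control 1 and 0.521 in overexpressing library 1. Pair 3 listed 9: 14313701-14313800, inside that region, where control 3 had 0.353 and overexpressing library 3 had 0.0315. At the same place pair 3 also listed 9: 14313188-14313646, which overlaps the lower end of the pair 1 region. There control 3 had 0.514 and overexpressing library 3 had 0.254. At the second place the order was the reverse, with a difference of -0.241 in pair 1 (9: 14314279-14314461) and 0.196 in pair 3 (9: 14314359-14314460). With unlike boundaries at the first place, the 2 controls lay farther apart there than the controls at any NFIX region.

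**Figure D4:**
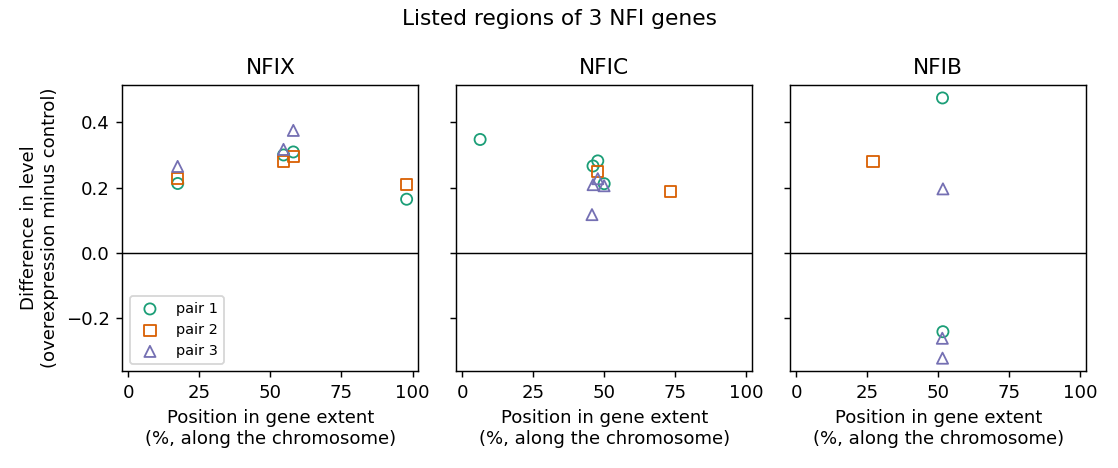
Differences in methylation level (fraction, overexpressing minus control library) of the listed regions of NFIX, NFIC and NFIB, by position in the gene's extent (percent, along the chromosome from its lower coordinate). A symbol shape stands for a pair and the horizontal line marks no difference. All NFIX and NFIC regions lie above the line, while NFIB has 3 above and 3 below.

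Few genes had a listed region at all, and none of the 24 protein-coding genes within 250 kb of it, LYL1 among them, had a listed region within 1 kb, where the share over all protein-coding genes was 8.84%. The nearest listed region below the window lies 272.7 kb away, at TNPO2 (19: 12721036-12721295), a nuclear import gene, where control 2 had 0.0715 and overexpressing library 2 had 0.167. On the other side the nearest is 755.7 kb away (19: 13854699-13854824), with 0.558 and 0.810 in pair 1 and no gene within 1 kb. The members nearest to the window's edges are those of region 4 and region 1.

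HepG2 is of liver origin, and transcription factors of hepatocytes were therefore counted beside NFIX. Of 30 such genes, 5 had a listed region (16.7%, against 8.84% of all protein-coding genes). All 5 (16.7% of the 30) had one that was higher, against 7.1% of all protein-coding genes. Among all protein-coding genes with a listed region, 1424 of 1773 had a higher one. A lower region was also found in 1 of the 5 (3.33% of the 30, against 2.38% of all protein-coding genes). A place higher in all pairs was found in 1 of the 30, against 0.917% of all genes. It was in NR2F2, an orphan nuclear receptor gene (15: 96334071-96334453), with 0.0715 ± 0.00412 in the controls and 0.321 ± 0.0150 in the overexpressing libraries (SD, n = 3). RXRA, the retinoid X receptor alpha gene, had 6 regions and GATA6 had 2, all higher. HNF4A, a central regulator of hepatocyte genes, had 1 region, at 0.717 in control 1 and 0.868 in overexpressing library 1. ONECUT1, a factor of early liver development, had 3 higher and 2 lower regions, none of them listed in a second pair. These lists are short and the counts describe called regions only.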

How the data were processed

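RRBS libraries of HepG2 cells, 3 control and 3 DNMT3A-overexpressing, were read from 3 lists of called regions and a table of mapped reads. Per the labels' protocols, DNA spiked with lambda DNA was digested by MspI, given methylated adapters and converted with bisulfite. The submitters' processing notes name hg38 as the build. For the aligner, region caller, thresholds and conversion rate, the sources used here give nothing. Per the file headers, the authors gave each region's mean level in both libraries as a fraction, its length and number of CpG sites, a signed difference and an area score. The deposited counts are total and mapped reads, and the mapping rates are the authors' percent values. A region enters a list only when called, so its listed difference tends to exceed that of a fresh measurement.

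Groups and numbers came from the labels. Differences are overexpressing minus control level. Regions overlapping by at least 1 bp were merged, and a pair's value in a merged region was the mean weighted by CpG sites. Genes (20056 protein-coding, 18330 long noncoding) came from the RefSeq table of GRCh38.p14, which gives extents without exons, so whether a region is exonic or intronic was not analysed here. Promoter windows came from RefSeq. Python 3.11.15 with pandas 2.3.3 was used, and merging was tested on simulated regions. The gene and the lists (NFI family, neighbours within 250 kb, liver transcription factors) were chosen with earlier results of these data known. Named were every NFIX region, list genes with listed regions, and for each NFIX region of all pairs the 3 regions elsewhere with the nearest levels. Alternatives covered weighting, overlap, minimum difference, CpG number, window and leaving out pairs. No test was run, since all values come from the contrast by which the gene was chosen.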

Additional observations from a re-analysis of the deposited data

How the results depend on the processing

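For the direction of the 11 NFIX regions the alternatives only left regions out, so no direction could change. All regions that remained were therefore higher. Their number was 10 with differences of at least 0.2, 11 with at least 5 CpG sites or the annotated extent of NFIX, and 7 to 8 without 1 pair, which follows from the shorter set. The mean difference of 0.272 ranged from 0.247 to 0.286 over 10 alternatives, all within 1 SD. Among these, the minimum of 5 CpG sites and the annotated extent kept all 11 regions, so the mean could not change. The number of places listed in all pairs stayed at 3 with each other definition of overlap, difference and CpG number. The cut-offs of 0.2 and of 5 CpG sites removed no listing of regions 1 to 3, so that number could not change under them. It was 3 to 4 without 1 pair. With overlap of at least 50% of both regions, region 4 split, which gave 5 places. Leaving out a pair for places and for single regions, the mean over regions of all pairs and the value without a block were chosen after seeing the data. Differences were taken within the authors' pairs. Without a replicate block, as the difference of the group means, the value is 0.272 by construction. The spread given with it, 0.0589, is the square root of the summed variances of the single libraries of both groups. The SD of the differences within pairs is 0.0426. Both spreads include pair 3, which holds no region 4. No paired test was run, since the gene was chosen from the same contrast. Without reads per region, no coverage minimum could be set and no interval is given for a level.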

Other observations

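At region 2 of NFIX the number of CpG sites did not follow the length. Pair 2 listed 8 sites in 62 bp (19: 13051879-13051940) and pair 3 listed 16 sites in 63 bp (19: 13051879-13051941). Among 552 overlaps of the whole series with both boundaries within 1 bp, the numbers were equal in 371 (67.2%) and exactly 2 times apart in 6 (1.09%). The levels of region 2 in these pairs were 0.0530 and 0.0730 in the controls and 0.331 and 0.390 in the overexpressing libraries. Whether the sites of both strands were counted separately is not stated, and its part in these levels was not tested.

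By the authors' area score, each NFIX region stood nearer the top of its list than by difference in level, except region 2 in pair 2. Region 2 of pair 1 ranked 458 of 1483 by difference and 113 by area score. In pair 2 the same place ranked 534 of 1433 by difference and 628 by area score, where it held 8 CpG sites.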
